A study of Mus musculus with 12 samples.

Results

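The DNA damage checkpoint kinases and mediators comprised 10 genes, chosen by name for their place in the checkpoint: Atm, Atr and Atrip, the mediators Trp53bp1, Mdc1 and claspin, the effector kinases Chek1 and Chek2, and the cell cycle enzymes Wee1 and Cdc25a. The symbol Claspn matched no row, and claspin was followed under its mouse symbol, Clspn. All 10 were listed in each of the 12 libraries, among 15803 transcripts with a read in at least 1 library, and all 10 passed the filter on low values in both assays. The 12 libraries were ribosome footprints, the fragments of mRNA protected by ribosomes, and RNA-seq from lysates of KPC cells, with 2 libraries for each assay and group. KPC is a line of pancreatic ductal adenocarcinoma cells from mouse tumours in which Cre, driven by the promoter of the pancreatic factor Pdx1, had switched on the LSL-R172H allele of Trp53, so every group shared this allele. Cells received Cis (cisplatin, a platinum drug that crosslinks DNA) for 6 h or 21 h at the 20 μM given in the study's methods, or PBS, labelled as untreated, for a time that the labels do not state. The labels do not say that the 2 libraries of a group came from separate cultures, so the p-values measure only the spread between these libraries.

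When DNA is broken or a replication fork stalls, ATM or ATR, the latter with its partner ATRIP, phosphorylates mediators and the effector kinases CHK2 and CHK1. These in turn restrain CDC25 phosphatases, which activate cyclin-dependent kinases, while WEE1 inhibits the same kinases by phosphorylating them, and the cell pauses before or during DNA replication or before mitosis. Most of this control acts on the proteins by phosphorylation and degradation, which neither footprints nor RNA-seq measure.

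Footprint libraries held 3375480 to 5204127 reads and RNA libraries 1985344 to 2901692, of which 862476 to 1341584 lay outside Lars2, Tmem38b and Mettl26. A checkpoint gene had 45 to 540 reads (median 173) in a footprint library but 8 to 164 (median 42) in an RNA library, so its RNA values carry more counting error. Of the epithelial markers, Krt8, Krt18 and Krt19 lay between 1569.6 and 4949.4 RPKM in every footprint library and Cdh1 between 88.3 and 146.8, while Epcam reached at most 1.83. Fibroblast, leukocyte and endothelial markers stayed at or below 5.40 RPKM in footprints, with Ptprc at most 0.229 and Pecam1 at most 0.540. Levels are given as RPKM (reads per coding length for footprints or per transcript length for RNA, divided by the library's total), which allows genes of different length to be compared. Changes are log2 differences fitted by limma on scaled RPKM with 0.5 added, which understates the change of low genes, and a change was called at an adjusted p under 0.05 over all genes tested. In bulk lysates, a change in fewer of the cells and a smaller change in all of them cannot be told apart.

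Promoter sequences were taken from RefSeq (GRCm38.p6) for 9 of the 10 genes. All but Wee1 had an entry. The 250 bases before each gene's start were searched on both strands for CCAAT and for an E2F-like motif of 8 letters, written as TTTCCCGC, TTTGGCGC, TTTCGCGC or TTTGCCGC, because E2F factors are textbook regulators of genes used for DNA replication. The stretches below are those of the 2 genes whose footprints and RNA both rose at 21 h, of Mdc1 and Chek2, the other 2 with both motifs, and of Atr, whose footprints fell. Capitals mark the matches, in either orientation, and each is written along the gene's own strand.
Cdc25a, chr9:109875438-109875529 (+): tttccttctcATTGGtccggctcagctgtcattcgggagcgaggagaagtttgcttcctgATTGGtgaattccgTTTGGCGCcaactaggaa
Clspn, chr4:126556901-126556973 (+): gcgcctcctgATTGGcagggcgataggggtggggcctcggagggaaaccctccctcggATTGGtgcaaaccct
Mdc1, chr17:35841413-35841497 (+): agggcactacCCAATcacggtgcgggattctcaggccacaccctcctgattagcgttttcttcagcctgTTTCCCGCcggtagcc
Chek2, chr5:110839787-110839971 (+): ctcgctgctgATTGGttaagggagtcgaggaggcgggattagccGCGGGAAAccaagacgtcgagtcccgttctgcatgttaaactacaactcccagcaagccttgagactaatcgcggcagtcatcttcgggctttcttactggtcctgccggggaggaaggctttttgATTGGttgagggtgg
Atr, chr9:95857477-95857596 (+): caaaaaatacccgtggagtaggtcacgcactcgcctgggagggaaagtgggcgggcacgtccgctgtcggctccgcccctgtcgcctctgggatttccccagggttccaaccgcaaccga

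The E2F-like motif stood in 3 of the 9 promoters, those of Mdc1, Chek2 and Cdc25a, against 1.9% of 32851 promoters of the same length. CCAAT stood in 6 of the 9 (Atm, Atrip, Mdc1, Clspn, Chek2 and Cdc25a), against 33.8% of all promoters. Clspn, Chek2 and Cdc25a held 2 copies each. In Cdc25a the E2F-like letters lay 59 bases before the start, in Mdc1 8 bases and in Chek2 144 bases. Whether the matches go with the changes was not tested. Cdc25a, Mdc1 and Chek2 held both motifs, and their footprint changes at 21 h against PBS were 0.99, 0.36 and -0.20. Chek2 passed the test in no comparison below. The windows of Atr, Trp53bp1 and Chek1 held neither motif, and their footprint changes were -1.31, -0.49 and 0.14.

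In PBS, the footprint levels ran from 3.82 ± 0.298 RPKM (SD, n = 2) for Atm to 36.2 ± 4.71 for Chek1. Chek1 was followed by Chek2 (21.5 ± 1.15), Cdc25a (21.4 ± 0.378), Mdc1 (18.6 ± 0.802) and Clspn (17.1 ± 1.80), and then by Wee1 (14.7 ± 0.114), Trp53bp1 (10.6), Atrip (6.10 ± 1.41) and Atr (5.12 ± 0.198). The libraries of Chek2 and Cdc25a, of Mdc1 and Clspn, and of Atrip and Atr overlapped, so the order within each of these pairs is not resolved. Of the apical kinases, which start the response, Atm had the lowest footprint level of the set, at the 15.2 percentile of genes, and Atr (20.6) lay next with Atrip (24.5), the order of these 2 not resolved. The effector kinase Chek1 had the most, at the 66.5 percentile.

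The RNA levels in PBS covered a narrower range, from 1.70 ± 0.0622 RPKM for Atm to 6.32 ± 0.166 for Mdc1, and most neighbours in the order overlapped. Chek1, first in footprints, was sixth in RNA at 3.04 ± 0.0642 RPKM, with 28 and 34 reads. Its ratio of footprint to RNA RPKM, the translation efficiency or TE, was 11.9 in PBS, the highest of the 10 and at the 95.3 percentile of genes. Ratios are given as the ratio of the group means, with the lowest and highest of the 4 divisions of a footprint by an RNA library. The labels do not say which footprint and RNA libraries came from the same lysate. For Chek1 the lowest and highest divisions were 10.7 and 13.2. RNA RPKM were taken over the whole transcript, 3797 nt for Chek1 with 1428 nt coding. Whether the cells use this transcript was not tested. The ratio has no absolute scale here, since Lars2, Tmem38b and Mettl26 hold much of the RNA library, as the depths above show, and lower every other RNA RPKM. Over all genes its median was 3.47, with quartiles of 2.098 and 5.525. Chek2 followed at 5.93, with divisions from 4.29 to 9.19 that rest on 27 and 16 RNA reads. The ratios of the other 8 lay inside the quartiles, from 4.05 (3.35 to 4.95) for Clspn to 2.25 (2.07 to 2.44) for Atm.

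**Figure D1:**
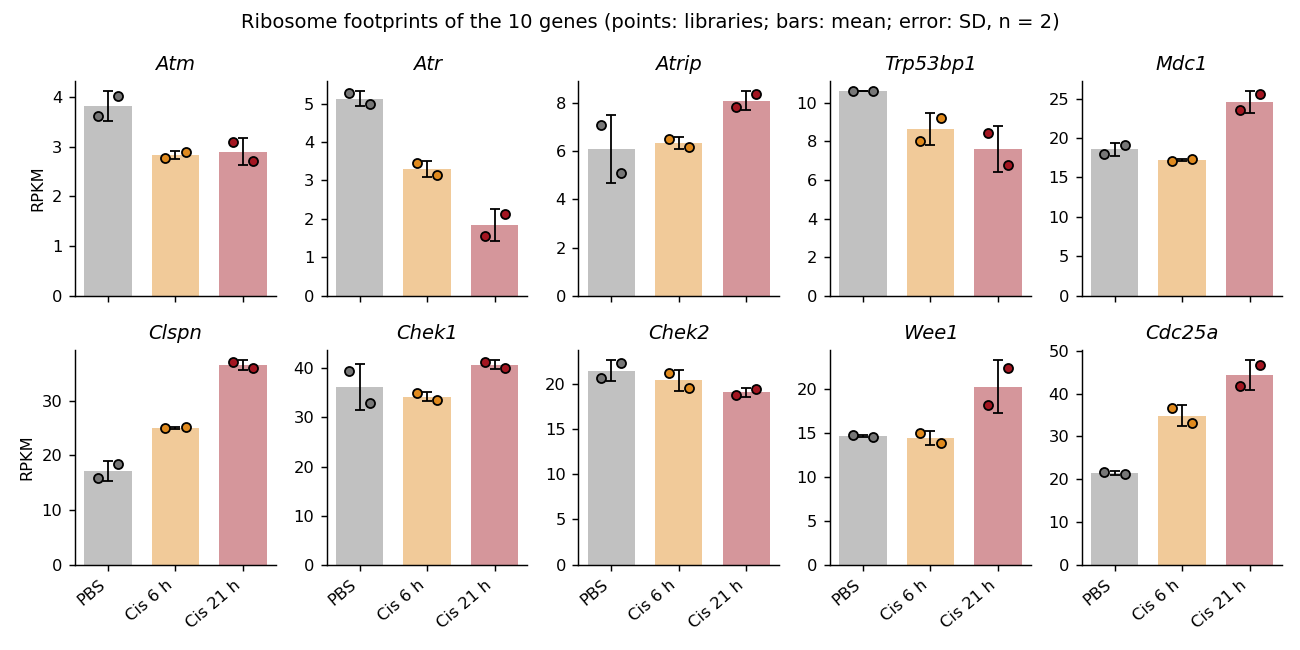
Ribosome footprint levels (RPKM, linear axis from 0, with its own scale for each gene) of the 10 checkpoint genes in PBS, Cis 6 h and Cis 21 h. Points are libraries, bars means and error bars SD (n = 2). Clspn and Cdc25a rise at each time without overlap between groups, Atr falls from 5.12 to 1.84 RPKM, and Chek1 and Chek2 stay near their PBS level.

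The first question was how the footprints of the checkpoint genes differed between PBS, 6 h and 21 h of Cis. The same PBS libraries served for both times, so effects of hours in culture cannot be told apart from those of Cis. At 21 h against PBS, Clspn and Cdc25a rose about 2-fold, and Atr fell from a mean of 5.12 to 1.84 RPKM. For Atr the limma fit, which understates the change of low genes, gave a factor of 0.404. The other 7 did not pass the test. That is 2 of 10 higher and 1 of 10 lower, against 18.9% of all 10390 genes tested called higher and 20.2% called lower. The median change of the 10 was 0.25 on the log2 scale, against 0.01 over all genes, with single changes from -1.31 to 1.04.

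Cdc25a encodes the phosphatase that removes inhibitory phosphates from cyclin-dependent kinases, and that CHK1 marks for degradation after damage. Its footprints were 21.7 and 21.1 RPKM in PBS, 36.6 and 33.0 at 6 h, and 41.9 and 46.8 at 21 h. The 3 groups did not overlap, and most of the rise was already present at 6 h. The change was 0.67 (SE 0.12, adjusted p = 0.0377) at 6 h and 0.99 (SE 0.12, adjusted p = 0.000467) at 21 h, and 0.32 (SE 0.12, adjusted p = 0.0786) between the times. Cdc25a was the only checkpoint gene called at 6 h, where 1.05% of all genes were called higher and 0.991% lower. That call was lost when any 1 of the 2 PBS or the 2 Cis 6 h libraries was left out (changes of 0.60 to 0.75, with adjusted p = 0.133 without PBS replicate 1, 0.135 without PBS replicate 2, 0.198 without Cis 6 h replicate 1 and 0.2 without Cis 6 h replicate 2).

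Clspn encodes claspin, the adaptor through which ATR reaches CHK1 at stalled forks. Its footprints were 15.8 and 18.4 RPKM in PBS, 24.9 and 25.2 at 6 h, and 37.1 and 35.9 at 21 h, again with no overlap between groups. The change was 0.53 (SE 0.13, adjusted p = 0.0789) at 6 h and 1.04 (SE 0.13, adjusted p = 0.000553) at 21 h. Unlike Cdc25a, it passed the test between the times, at 0.51 (SE 0.13, adjusted p = 0.0198), but the difference between the 2 genes was not tested.

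Atr, the kinase that responds to single-stranded DNA at stalled forks, went the other way. Its footprints were 5.26 and 4.98 RPKM in PBS, 3.44 and 3.14 at 6 h, and 1.54 and 2.13 at 21 h. These rest on 217 and 184 reads, 128 and 84 reads, and 45 and 59 reads, and the groups did not overlap. The change was -0.58 (SE 0.25, adjusted p = 0.231) at 6 h, -1.31 (SE 0.25, adjusted p = 0.00414) at 21 h and -0.73 (SE 0.25, adjusted p = 0.0594) between the times. The difference between the times did pass without the trend (-0.73, adjusted p = 0.0283) and by voom on recovered reads (-0.91, adjusted p = 0.000994). Its partner Atrip did not move with it: the footprints of Atrip were 7.10 and 5.10 RPKM in PBS, 6.52 and 6.16 at 6 h, and 7.83 and 8.39 at 21 h, a change at 21 h of 0.37 (SE 0.21, adjusted p = 0.196). Atrip had 49 to 87 reads per footprint library, and RefSeq lists a noncoding transcript, Atrip-trex1, over the same locus.

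Atm, the kinase for double-strand breaks, had footprints of 3.61 and 4.04 RPKM in PBS, 2.78 and 2.90 at 6 h, and 3.10 and 2.71 at 21 h. Both Cis groups lay below both PBS libraries, but the changes of -0.38 (SE 0.24) at either time were not past the test (adjusted p = 0.4 and 0.248). The same held for Trp53bp1, which encodes 53BP1, a chromatin-bound mediator that favours joining of broken ends. It measured 10.6 in each PBS library, 8.05 and 9.23 at 6 h, and 8.45 and 6.79 at 21 h, a change at 21 h of -0.49 (SE 0.18, adjusted p = 0.063) that passed without Cis 21 h replicate 1 (-0.64, adjusted p = 0.0471). Trp53bp1 overlaps Tubgcp4 and Map1a in RefSeq, and the way reads over both genes were assigned is not given in the sources used here.

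Mdc1 binds phosphorylated H2AX beside breaks and gathers other mediators there. Its footprints were 18.0 and 19.1 RPKM in PBS, 17.1 and 17.3 at 6 h, and 23.6 and 25.5 at 21 h, so that the 21 h libraries stood above the rest. The change was -0.12 (SE 0.13, adjusted p = 0.645) at 6 h and 0.36 (SE 0.13, adjusted p = 0.0608) at 21 h, and it passed between the times at 0.48 (SE 0.13, adjusted p = 0.0259). Mdc1 and Clspn were the 2 genes of 10 called higher at 21 h against 6 h, and none was called lower, against 15% and 15.7% of all genes. Neither call held when Cis 6 h replicate 1, Cis 6 h replicate 2 or Cis 21 h replicate 2 was left out. Without these, the adjusted p was 0.106, 0.104 and 0.0985 for Mdc1 and 0.0892, 0.0892 and 0.0539 for Clspn. Without Cis 21 h replicate 1, Clspn was also lost (adjusted p = 0.0655).

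The effector kinases differed least from PBS at 21 h. Chek1, which carries the signal of ATR, had footprints of 39.6 and 32.9 RPKM in PBS, 34.9 and 33.6 at 6 h, and 41.4 and 40.1 at 21 h. Chek2, which carries the signal of ATM, had 20.6 and 22.3 in PBS, 21.2 and 19.5 at 6 h, and 18.7 and 19.4 at 21 h. The changes at 21 h were 0.14 for Chek1 (95% interval -0.14 to 0.41, adjusted p = 0.394) and -0.20 for Chek2 (-0.51 to 0.10, adjusted p = 0.264). A 2-fold change in either direction lies outside both intervals.

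Wee1, the kinase that opposes CDC25 phosphatases, had footprints of 14.8 and 14.6 RPKM in PBS, 15.1 and 13.9 at 6 h, and 18.2 and 22.5 at 21 h. Both 21 h libraries stood above the others, but apart from each other. The change at 21 h was 0.41 (SE 0.16, adjusted p = 0.065), and 0.56 (adjusted p = 0.0358) without Cis 21 h replicate 1, the lower of the 2. Of the opposing cell cycle enzymes, then, Cdc25a passed the test at both times and Wee1 at neither, and the difference between them was not tested.

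**Figure D2:**
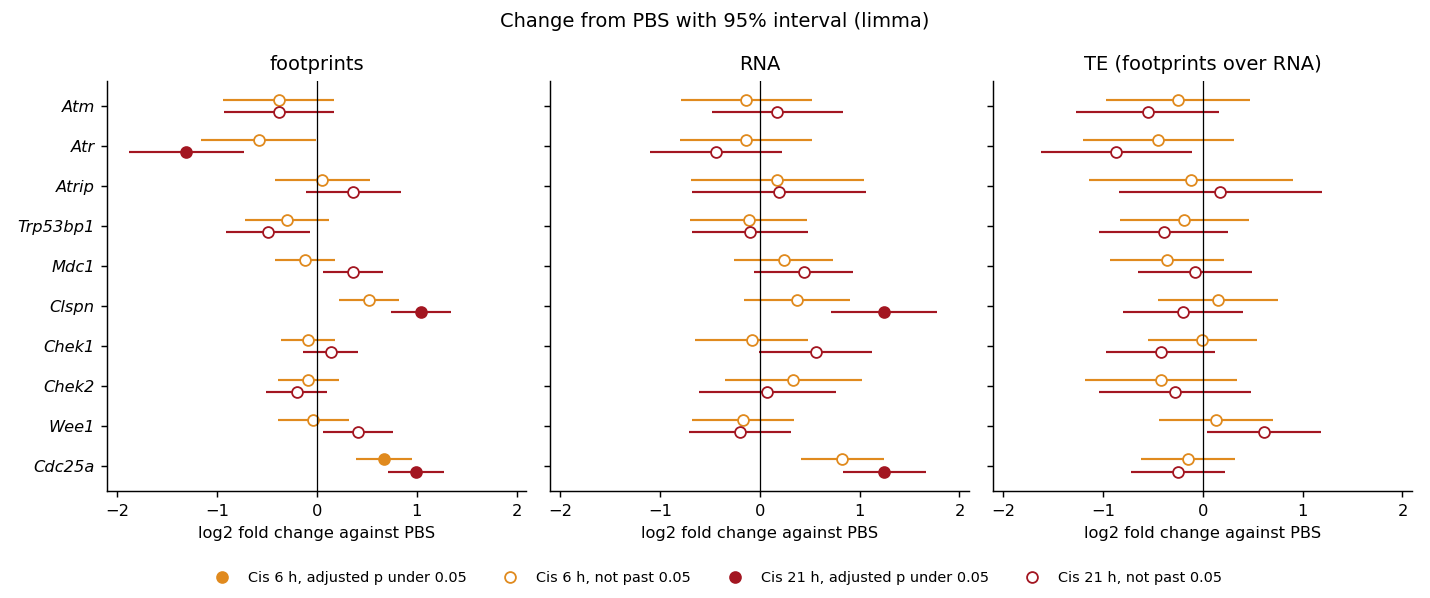
Changes from PBS (log2 fold change, horizontal axis, with 95% intervals from limma) at 6 h and 21 h for footprints, RNA and TE of the 10 checkpoint genes. Filled points passed an adjusted p under 0.05. In footprints these are Cdc25a at both times and Clspn and Atr at 21 h, in RNA Clspn and Cdc25a at 21 h, and in TE none.

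The second question was whether the RNA moved with the footprints. At 21 h the RNA of Clspn and Cdc25a rose, 2 of 10 genes, and none fell. Of all 9459 genes tested, 11.6% were called higher and 12.2% lower. Mean RNA went from 4.22 to 11.3 RPKM for Clspn and from 5.50 to 14.5 for Cdc25a. The limma fit, which understates the change of low genes, gave a factor of 2.37 for each. Cdc25a RNA was 4.92 and 6.07 RPKM in PBS, 8.60 and 10.7 at 6 h, and 13.7 and 15.3 at 21 h. Clspn RNA was 3.72 and 4.73 in PBS, 6.41 and 4.39 at 6 h, and 12.2 and 10.4 at 21 h. For Cdc25a the 3 groups were separate, as in footprints, whereas the Clspn RNA libraries at 6 h overlapped those of PBS. The changes at 21 h were 1.25 (SE 0.19, adjusted p = 0.00175) for Cdc25a and 1.24 (SE 0.24, adjusted p = 0.00531) for Clspn.

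At 6 h no checkpoint gene passed in RNA, and no gene did: limma called 0 of 9459 in either direction (0% higher and 0% lower), with 1086 at an unadjusted p under 0.05, while voom on reads recovered from the RPKM called 71 higher and 182 lower. Cdc25a was the 1 checkpoint gene of the 1086, at 0.83 (SE 0.19, adjusted p = 0.245), and voom called it (0.89, adjusted p = 0.00537). Between 6 h and 21 h, Clspn rose by 0.87 (SE 0.24, adjusted p = 0.0344), the only call among the 10, against 7.53% of all genes called higher and 8.2% lower. That call was lost without Cis 6 h replicate 2 (0.62, adjusted p = 0.163), Cis 21 h replicate 1 (0.73, adjusted p = 0.169) or Cis 21 h replicate 2 (1.02, adjusted p = 0.0739).

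The RNA of Atr did not fall past the test. It was 2.41 and 1.79 RPKM in PBS, 1.87 and 1.66 at 6 h, and 1.38 and 1.59 at 21 h, a change at 21 h of -0.44 (95% interval -1.10 to 0.22, adjusted p = 0.312) on 26 and 27 reads per 21 h library. Chek1 RNA was 3.00 and 3.09 in PBS, 2.39 and 3.08 at 6 h, and 5.65 and 4.41 at 21 h. The 21 h libraries of Chek1 stood above the others, and the change was 0.56 (SE 0.25, adjusted p = 0.139). Mdc1 RNA, at 6.20 and 6.44 in PBS and 8.02 and 10.7 at 21 h, gave 0.44 (SE 0.22, adjusted p = 0.182), and voom called it (0.43, adjusted p = 0.0183). The RNA of Atm, Atrip, Trp53bp1, Chek2 and Wee1 gave values of -0.20 to 0.19 at 21 h, each with an adjusted p of at least 0.575. The 2 libraries of a group lay far apart for Atrip and Chek2, with 23 and 8 reads for Atrip at 21 h and 27 and 16 for Chek2 in PBS.

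**Figure D3:**
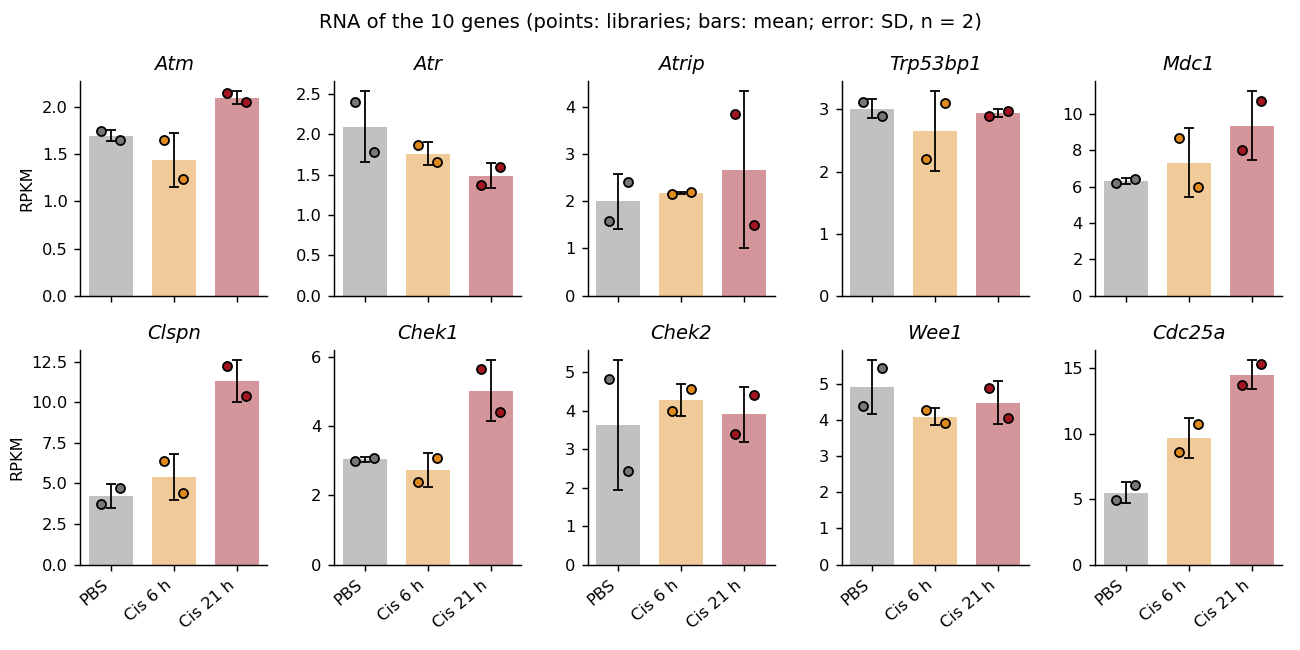
RNA levels (RPKM, linear axis from 0, with its own scale for each gene) of the 10 checkpoint genes in PBS, Cis 6 h and Cis 21 h. Points are libraries, bars means and error bars SD (n = 2). Clspn and Cdc25a are highest at 21 h, at 11.3 and 14.5 RPKM on average, and the 21 h libraries of Atrip lie far apart, at 3.84 and 1.49 RPKM.

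TE was tested as the difference between the footprint and the RNA change. None of the 10 passed at 6 h or at 21 h by limma, and none under voom or any other alternative run. At an unadjusted p under 0.05 there were 0 of 10 at 6 h and 2 of 10 at 21 h, Atr and Wee1, against 7.65% and 12.7% of all genes. Over 9312 genes the test called 0% higher and 0% lower at 6 h (712 at an unadjusted p under 0.05, and 4 higher and 9 lower by voom), and 0.258% higher and 0.15% lower at 21 h (1183 at an unadjusted p under 0.05). For Cdc25a and Clspn the TE changes at 21 h were -0.25 (95% interval -0.72 to 0.22) and -0.20 (-0.81 to 0.40), so the rise of their footprints and that of their RNA were not told apart within these intervals.

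For Atr the ratio of footprint to RNA RPKM was 2.44 (divisions from 2.07 to 2.95) in PBS, 1.87 (1.68 to 2.08) at 6 h and 1.24 (0.966 to 1.55) at 21 h. The 21 h divisions lay below all others, while those of PBS and 6 h overlapped. The TE change at 21 h was -0.87 (95% interval -1.62 to -0.11, adjusted p = 0.332). Wee1 went in the opposite direction, with ratios of 2.99 (2.69 to 3.36), 3.53 (3.26 to 3.84) and 4.54 (3.72 to 5.53) and a TE change of 0.61 (0.04 to 1.18, adjusted p = 0.367). Neither passed after adjustment, and the intervals span changes from slight to 2-fold or more. The ratio of Chek1 was 12.5 (10.9 to 14.6) at 6 h and 8.10 (7.09 to 9.39) at 21 h, still the highest of the 10, and its TE change was -0.42 (-0.97 to 0.12, adjusted p = 0.527). The ratio of Atm went from 2.25 to 1.38 (1.26 to 1.51) at 21 h, without overlap, at a TE change of -0.55 (-1.27 to 0.16, adjusted p = 0.527). The median TE change of the 10 was -0.17 at 6 h and -0.26 at 21 h, against -0.01 and -0.04 over all genes, with 8 of 10 below 0 at each time.

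**Figure D4:**
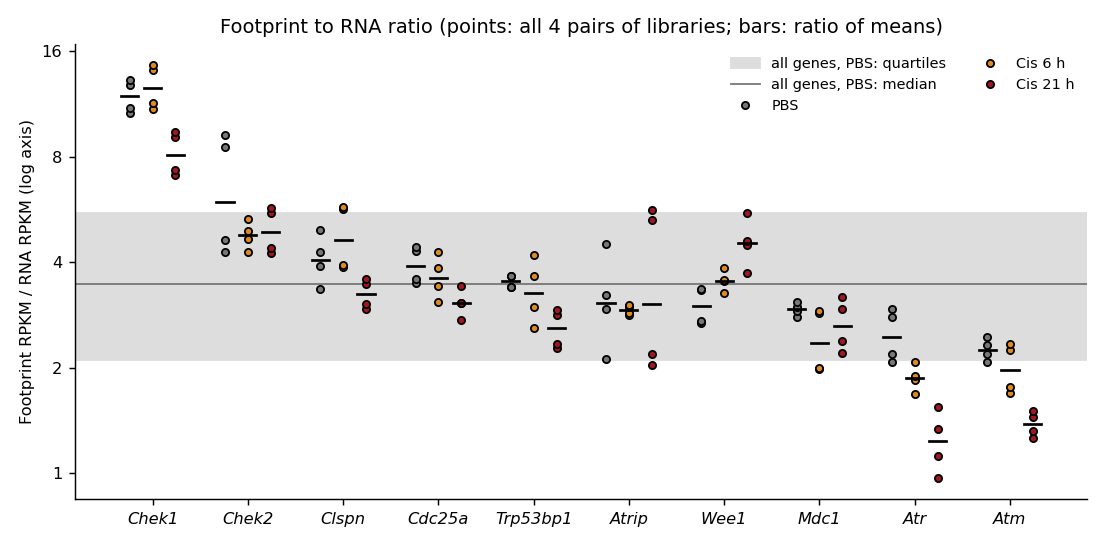
Ratio of footprint to RNA RPKM (log axis) of the 10 checkpoint genes in PBS, Cis 6 h and Cis 21 h, ordered by the PBS ratio. Points are the 4 divisions of a footprint by an RNA library of the group, bars the ratios of the group means, and the grey band and line the quartiles (2.098 to 5.525) and median (3.47) of all genes in PBS, from scaled RPKM. Chek1 lies above the band in every group, and all 4 points of Atr and of Atm at 21 h, and of Atr at 6 h, lie below it.

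The genes also differ in size, a feature that their choice did not use. Atm, Atr and Trp53bp1 span 99.7, 95.6 and 101.5 kb of genome (RefSeq lengths on GRCm38.p6, while the files used GRCm39), and the other 7 span 14.4 kb (Atrip) to 37.6 kb (Clspn). Over all genes the footprint change at 21 h differed with span. The median was 0.19 below 30 kb (6192 genes), -0.06 from 30 to 60 kb (1963 genes) and -0.70 from 60 kb (2173 genes, quartiles -1.29 and -0.29). The 3 long checkpoint genes were also the 3 with the lowest footprint changes of the 10. Atm (-0.38) and Trp53bp1 (-0.49) lay within the quartiles of genes of 60 kb or more, and Atr (-1.31) just below the lower one. In RNA, genes from 60 kb had a median of -0.50 (quartiles -1.03 and -0.13), and Atr (-0.44) lay within the quartiles, while Trp53bp1 (-0.10) and Atm (0.17) lay above the upper one. Clspn, at 37.6 kb, stood far above the upper quartile of its size class in footprints (1.04 against 0.23) and RNA (1.24 against 0.31). The part of gene length in the fall of Atr was not tested. Of the 10 genes, 5 (Atm, Atr, Atrip, Chek1 and Cdc25a) lie on chromosome 9, and they include both the gene that fell and 1 of the 2 that rose. The share of all genes on that chromosome was not computed, and a part of position in the changes was not tested.

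**Figure D5:**
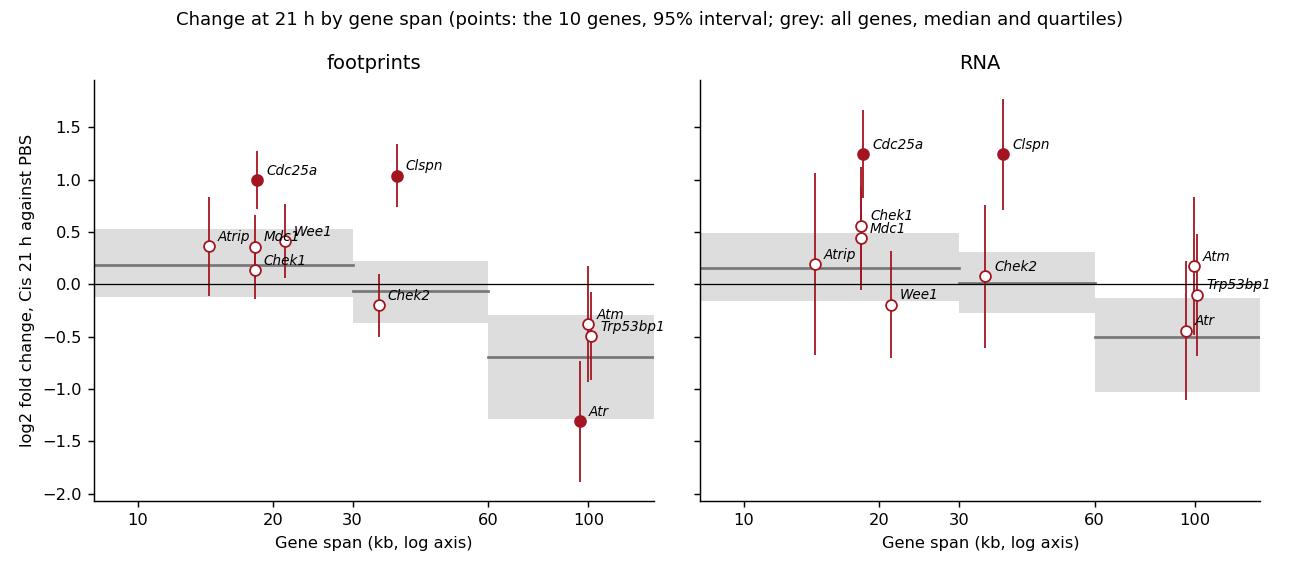
Change at 21 h against PBS (log2 fold change) by gene span (kb, log axis) in footprints and RNA. Points are the 10 checkpoint genes with 95% intervals, filled where called, and grey bands and lines are the quartiles and median of all genes below 30 kb, from 30 to 60 kb and from 60 kb. Atm, Atr and Trp53bp1 sit together near 100 kb, in the open class from 60 kb, whose median is -0.70 in footprints and -0.50 in RNA.

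The likeness of the time courses was measured as the root mean square difference over 4 log2 changes (footprints and RNA at 6 h and 21 h), all of which share the PBS libraries. Among the 10, the closest pairs were Atrip and Mdc1 (0.156) and Atm and Trp53bp1 (0.156). Clspn and Cdc25a were nearest to each other (0.240), and Atr was farthest from any other, with Trp53bp1 nearest at 0.464. Over 9312 genes, the nearest to Atr were Cdyl (0.0453), Asb3 (0.104) and Ap4s1 (0.133), the nearest to Clspn were Xndc1 (0.0565), Gemin2 (0.0626) and Traip (0.0962), and the nearest to Cdc25a were Cebpa (0.0879), Kctd7 (0.111) and Cpsf4 (0.117).

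The 10 genes were set beside 43 other genes of the checkpoint pathway. This list, like the 10, was drawn up with earlier results of these data known, so its counts are a description only. In footprints at 21 h, 16 of the 43 rose and 5 fell, against 18.9% and 20.2% of all genes, with a median change of 0.24, close to the 0.25 of the 10. In RNA at 21 h, 14 of 42 rose and 1 fell, against 11.6% and 12.2%. At 6 h, 1 of 43 (Ccne1) was called in footprints, against 1.05% of all genes called higher and 0.991% lower. In RNA at 6 h, 0 of 42 were called, against 0% of all genes, and voom also called 0. At an unadjusted p under 0.05, limma gave 6 of the 42 there, against 11.5% of all genes. The RNA count at 21 h fell when either PBS library or Cis 21 h replicate 2 was left out. Calls over all genes fell there too, so the fall was not particular to these genes. In TE, limma called 0 of 42 at either time, with 1 at 6 h and 2 at 21 h at an unadjusted p under 0.05 (712 and 1183 of all 9312 genes), and voom called 0.

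Of 12 sensors of damage and clamp subunits, 4 rose in footprints at 21 h and 1 fell, against 18.9% of all genes higher and 20.2% lower. Rpa2, a subunit of the complex that coats single-stranded DNA and recruits ATR with ATRIP, was 51.2 and 52.7 RPKM in PBS and 120.9 and 124.4 at 21 h (1.19, SE 0.11, adjusted p = 0.000142). Rad9a and Rad1, subunits of the clamp loaded at such sites, changed by 1.203 (SE 0.26, adjusted p = 0.00641) and 0.53 (SE 0.10, adjusted p = 0.00375). Nbn, of the complex that brings ATM to breaks, fell by 0.74 (SE 0.15, adjusted p = 0.005), from 26.1 and 23.0 RPKM to 13.4 and 16.4. The other 7 of the 12 were not called in footprints, among them Hus1 of the same clamp (0.21, adjusted p = 0.409). Nor were Mre11a (0.01, adjusted p = 0.957) and Rad50 (-0.13, adjusted p = 0.446), of the same complex as Nbn. In RNA at 21 h, Rpa2 (1.09, adjusted p = 0.000632) and Rad9a (1.275, adjusted p = 0.0103) were also called higher. Rad1 (0.70, adjusted p = 0.0655) and Nbn (-0.58, adjusted p = 0.104) were not called there.

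Of 10 mediators and fork proteins, 4 rose in footprints at 21 h and none fell, against the same 18.9% and 20.2%. Timeless, which travels with claspin at forks, was 14.3 and 15.5 RPKM in PBS and 28.0 and 28.8 at 21 h (0.87, SE 0.14, adjusted p = 0.00157). Brca1, a repair and checkpoint protein, changed by 0.97 (SE 0.18, adjusted p = 0.00308), and H2afx, the histone variant bound by MDC1 once phosphorylated, by 0.71 (SE 0.11, adjusted p = 0.00152). Bard1, the partner of Brca1, was not called (-0.27, SE 0.16, adjusted p = 0.205). In RNA at 21 h, Timeless, Brca1 and H2afx were also called higher. Among 5 relatives of ATM and ATR and their assembly factors, 1 passed in footprints at 21 h, Prkdc, the catalytic subunit of the DNA-dependent protein kinase. It fell by 1.23 (SE 0.33, adjusted p = 0.0175), from 2.23 and 1.89 RPKM to 0.591 and 0.624 with 27 reads in each 21 h library. Its RNA was below the filter. In RNA at 21 h the 1 call among these relatives was Tti1, named after its value was seen (0.86, SE 0.23, adjusted p = 0.0223). The footprints of Tti1 did not pass at 21 h (-0.05, SE 0.16, adjusted p = 0.815).

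Of 10 cell cycle effectors, 7 rose in footprints at 21 h and none fell, and 5 rose in RNA and none fell, against 18.9% higher and 20.2% lower of all genes in footprints and 11.6% and 12.2% in RNA. Pkmyt1, the kinase related to WEE1 that also inhibits CDK1, changed by 1.14 (SE 0.20, adjusted p = 0.0024), from 9.28 and 6.57 RPKM to 19.4 and 17.3. Cdk2 and Cdc7, kinases of DNA replication, changed by 0.85 each (SE 0.11 and 0.21, adjusted p = 0.000711 and 0.0126). Of 6 genes of turnover and recovery, 3 fell and 1 rose in footprints at 21 h, against 20.2% and 18.9%. Btrc, the ubiquitin ligase subunit that recognises phosphorylated CDC25A, WEE1 and claspin, was 10.5 and 11.1 RPKM in PBS, 7.40 and 7.18 at 6 h and 3.29 and 2.84 at 21 h, a change of -1.70 (SE 0.19, adjusted p = 0.000319) on 22 and 18 reads at 21 h. Btrc was also lower in RNA, at 2.32 and 2.78 RPKM in PBS and 0.288 and 0.964 at 21 h, on 2 and 6 reads. Its paralog Fbxw11 and the deubiquitinase Usp7 were lower by 0.52 each (-0.52, adjusted p = 0.0192 and 0.0239), and Ppm1d, a phosphatase that ends the checkpoint, was higher by 0.80 (SE 0.13, adjusted p = 0.00192).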

How the data were processed

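Ribosome footprints and RNA-seq of KPC cells were analysed in 12 libraries, 2 for each assay and group, grouped by the sample labels. The full genotype of the line is not reported here. The authors deposited RPKM, for 1 transcript of each gene, per coding length for footprints and per transcript length for RNA. The submitters' processing notes name cutadapt, STAR and GRCm39. Multiplied by length, 100% of the RPKM gave whole reads (tolerance 0.01), hence the depths. A transcript missing from a library was given 0.

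RPKM were scaled by median-of-ratios factors (0.9483 to 1.0827), genes with a mean of at least 1 were kept, and limma 3.58.1 (R 4.3.3) was run on log2(RPKM + 0.5) (eBayes with trend, the 3 groups of an assay in 1 model, two-sided, Benjamini-Hochberg over all genes, threshold 0.05). The TE ratio, given by group means, and its 4 divisions were set after the data were seen. TE was the interaction of assay and treatment over 12 libraries. With 2 against 2 libraries, an exact permutation test cannot go below p = 0.333. Replicate libraries differed by more than sampling noise (chi-square of 1.454 to 3.972 for each degree of freedom).

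The 10 genes, the 43 pathway genes and the tests were chosen with earlier results of these data known. Of the pathway list, up to 3 genes each way per role were named, by the size of the footprint change at 21 h among those past the threshold. A count of SQ and TQ sites in the proteins was not run. Python 3.11.15 and pandas 2.3.3 were used. The fits were also run on simulated data with the same spread assumed for all libraries, and the outcome is not given here.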

Additional observations from a re-analysis of the deposited data

Results flagged for a closer look

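The change from PBS differed between 6 h and 21 h for 2 checkpoint genes in the direct test of the 2 times by limma. In footprints, Mdc1 was higher at 21 h than at 6 h by 0.48 on the log2 scale (adjusted p = 0.0259) and Clspn by 0.51 (adjusted p = 0.0198). In RNA, Clspn was higher by 0.87 (adjusted p = 0.0344). Both libraries at 21 h stood above both at 6 h in each case. Each call was lost with single libraries left out. The adjusted p for Mdc1 was 0.0985 to 0.106 without Cis 6 h replicate 1, Cis 6 h replicate 2 or Cis 21 h replicate 2, that for Clspn in footprints 0.0539 to 0.0892 without any 1 of the 4, and that for Clspn in RNA 0.0739 to 0.169 without Cis 6 h replicate 2 or either Cis 21 h library. With 2 libraries per group, no single library could be judged to stand apart.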

How the results depend on the processing

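The calls of Atr, Clspn and Cdc25a in footprints at 21 h and of Clspn and Cdc25a in RNA at 21 h held under every alternative that gave a value (14 for Atr, which a filter at a mean of 5 RPKM removed, and 15 for the others), with a highest adjusted p of 0.0325, 0.00531, 0.00491, 0.0453 and 0.0191. Of 1279 recomputed changes of the 10 genes, 1200 kept their direction and side of the threshold, but most of the 1279 concerned changes that had not been called to begin with. Calls lost under some settings were Cdc25a in footprints at 6 h and, at 21 h against 6 h, Mdc1 and Clspn in footprints and Clspn in RNA. Limits include 2 libraries per group and the 8 to 164 reads of each gene in an RNA library. With RPKM as deposited, the all-gene median in RNA at 21 h against 6 h moved from 0.01 to 0.15, and the genes called there moved from 712 higher and 776 lower to 1234 and 514. In TE at 21 h they moved from 24 and 14 to 18 and 16. The cause of the other differences was not tested.

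Checkpoint genes called in footprints at 6 h went from 1 to 0 with no filter, with no trend or with the replicate block, to 3 (Cdc25a, Clspn and Atr) by voom, and were 0 to 1 with a library left out. By voom, 2252 of all 10390 genes were called higher in footprints and 2393 lower at 21 h against PBS. At 21 h against 6 h voom called 1651 and 1986. With RPKM as deposited, 2183 and 1971 were called at 21 h against PBS. At 21 h against PBS the count of checkpoint genes went from 3 to 5 with RPKM as deposited (Mdc1 and Wee1 added), and to 7 by voom (also Atm and Trp53bp1). At 21 h against 6 h it went from 2 to 4 by voom (Atr and Wee1 added) and was 0 to 2 with a library left out. RNA at 6 h went from 0 to 1 by voom, and RNA at 21 h against 6 h from 1 to 0 with no filter or no trend and 0 to 1 with a library left out. Over all genes, footprint calls at 6 h (109 higher, 103 lower) went to 9 and 8 with no filter, 181 and 160 at a mean of 5 RPKM, 198 and 244 with the 2 groups alone, 0 and 0 without the trend, and 511 and 729 by voom. They were 0 to 12 and 0 to 18 without a PBS or Cis 6 h library, and 175 to 178 and 202 to 205 without a Cis 21 h library. At 21 h against 6 h they were 845 and 912 without Cis 6 h replicate 1 and 745 and 848 without Cis 6 h replicate 2. RNA calls at 21 h against 6 h went to 425 and 493 with no filter, 360 and 430 without the trend, 263 to 587 and 406 to 621 with a library left out, and 902 and 1205 by voom. Those lower in RNA at 6 h were 0 to 1 with a library left out. RNA calls lower at 21 h against PBS went from 1154 to 766 at a mean of 5 RPKM. Those higher went to 712 without the trend, and with a library left out the counts were 527 to 1162 higher and 561 to 1151 lower, lowest without PBS replicate 1. TE calls at 21 h (24 and 14) went to 4 and 4 with no filter, 37 and 30 at a mean of 5 RPKM, 0 and 0 without the trend, 1 to 27 and 1 to 15 with a library left out, 2 and 1 with the 2 groups alone and 84 and 69 by voom, and those lower to 23 with 1 added. Pathway genes called in footprints at 6 h ranged from 0 to 4 (1 in the fit reported). Those in footprints at 21 h against 6 h were 19, and 11 without either Cis 6 h library, and those in RNA at 21 h against 6 h were 7, with a range of 3 to 13.

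Within an assay, the replicate numbers gave no sign of pairing between groups, as deviations of libraries with the same number correlated by -0.014 to 0.021. Pairing of footprint with RNA libraries by number was not checked. With the number as a replicate block, Cdc25a in footprints at 6 h had an adjusted p of 0.0665, genes called there went to 17 higher and 20 lower, and TE calls at 21 h to 2 and 3. It changed no other call of the 10 genes.

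Some changes that had not passed the test turned their sign when 1 library was left out. In footprints at 6 h the ranges were -0.15 to 0.26 for Atrip, -0.20 to 0.025 for Chek1 and -0.091 to 0.021 for Wee1, and at 21 h against 6 h -0.073 to 0.086 for Atm. In RNA at 6 h they were -0.29 to 0.021 for Atm, -0.32 to 0.048 for Atr, -0.056 to 0.41 for Atrip, -0.32 to 0.095 for Trp53bp1, -0.016 to 0.49 for Mdc1, -0.23 to 0.073 for Chek1 and -0.11 to 0.78 for Chek2. In RNA at 21 h they were -0.40 to 0.78 for Atrip and -0.37 to 0.52 for Chek2, and at 21 h against 6 h -0.57 to 0.60 for Atrip, -0.20 to 0.22 for Trp53bp1, -0.054 to 0.45 for Mdc1 and -0.18 to 0.13 for Wee1. In TE at 6 h they were -0.35 to 0.11 for Atrip, -0.39 to 0.023 for Trp53bp1, -0.099 to 0.41 for Clspn, -0.16 to 0.15 for Chek1 and -0.87 to 0.022 for Chek2, and at 21 h -0.41 to 0.76 for Atrip, -0.24 to 0.083 for Mdc1 and -0.72 to 0.17 for Chek2. The sign also turned at 21 h against 6 h for Atm in footprints by voom (-0.0083) and, in RNA, for Atrip with 0.1 added (-0.0064) and by voom (-0.039), for Trp53bp1 by voom (-0.044) and for Wee1 with RPKM as deposited (0.11). For Chek1 in TE at 6 h it turned with 0.1 added (0.0037) and with RPKM as deposited (0.065).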

Other observations

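In footprints at 21 h against 6 h, 14 of the 43 pathway genes were called higher and 5 lower, against 15% and 15.7% of all genes. The 5 lower were Ccne1, Cdc25b, Nbn, Btrc and Fbxo6, of which the first 2 are described here, chosen after their values were seen. Ccne1 encodes cyclin E1, the partner of CDK2 whose activity CDC25A raises. Its footprints were 59.2 and 49.3 RPKM in PBS, 113.0 and 101.4 at 6 h, and 61.6 and 76.7 at 21 h. It rose at 6 h (0.97, SE 0.14, adjusted p = 0.0253 by limma) and was lower at 21 h than at 6 h (-0.66, SE 0.14, adjusted p = 0.00825). The call at 6 h was lost when any 1 of the PBS or Cis 6 h footprint libraries was left out, which left 0 of the 43 pathway genes called. Its RNA at 21 h was above that of PBS (0.79, SE 0.22, adjusted p = 0.0288), and its TE change at 21 h was -0.48 (SE 0.28, adjusted p = 0.514). Cdc25b, a relative of Cdc25a, was also lower at 21 h than at 6 h (-0.57, SE 0.13, adjusted p = 0.0112), with footprints of 124.5 and 131.8 RPKM at 6 h and 78.3 and 97.6 at 21 h.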
